A study of Mus musculus with 6 samples.

Results

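This section concerns 10 genes that encode the bile acid and organic anion transporters of the liver cell. They were taken by symbol from a table of 17975 genes, and all 10 were present and had enough counts to be tested. RNA was sequenced from whole liver of 3 wild-type (WT) mice and of 3 homozygous hepatocyte NEK7 knockout (Hom) mice, which carry floxed NEK7 on both alleles (NEK7 fl/fl) together with Alb-Cre, a Cre recombinase driven by the albumin promoter. No treatment is named for either group. The age and the sex of the sequenced mice are not given in the sources used here, and neither is whether the WT mice carried the floxed allele or Cre. The study states that both sexes were used in its experiments with knockout mice. Each library was 1 mouse, and the estimated read counts of the 6 libraries summed to between 19349418 and 19730236.

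A hepatocyte takes bile acids and other organic anions up from blood across its sinusoidal membrane and pumps them into bile across its canalicular membrane. Another set of carriers sits on the basolateral side and returns bile acids and conjugates to blood, a route that is known to gain weight when bile flow is impaired. In mice, transcription of several of these genes is known to be set by the bile acid receptor FXR, by xenobiotic receptors and, for some uptake carriers, by the sex-dependent pattern of growth hormone.

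Hom livers had less transcript of 5 of the 10 genes and more of 2, counting a gene where its adjusted p was under 0.05 (quasi-likelihood testing in edgeR over 13805 genes, Benjamini-Hochberg adjustment, no minimum fold change). By the same rule 20.1% of all tested genes were lower and 21.5% higher, or 41.7% in either direction. Requiring also a log2 fold change of at least 1 left 3 of the 10 lower and 1 higher, against 4.17% and 13.2% of all tested genes. The lower genes were 3 of the 4 sinusoidal uptake carriers (Slc10a1, Slco1b2 and Slco1a1) and 2 of the 3 canalicular pumps (Abcb11 and Abcc2). The higher genes were 2 of the 3 basolateral exporters (Slc51b and Abcc4). Slco1a4, Abcb4 and Abcc3 did not pass the test. The RNA came from whole liver, so fewer cells of a type cannot be told apart from less RNA per cell. Over the 10 members the log2 fold change had a median of −0.42, against −0.002 over all tested genes, and ran from −7.64 for Slco1a1 to 3.73 for Slc51b.

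Several facts about the libraries bear on these values. Nek7, the deleted gene, was at 1036 to 1127 counts in WT and 310 to 439 counts in Hom livers. The TMM factors that correct for library composition were 0.81 to 0.92 in WT and 1.09 to 1.23 in Hom livers, so the scaling of the libraries matters here: with library size alone the median of all genes moved to 0.45 on the log2 scale, and 642 genes were lower and 6574 higher, in place of 2780 and 2974. Hom replicate 1 stood apart, with 0 counts of the Y-linked genes Ddx3y and Kdm5d against at least 243 in each other liver. Its sex is not given, and the part of sex in the values of sex-biased genes such as Slco1a1 was not tested. WT replicate 1 stood apart too: it had 1881 counts of the female-biased gene Cyp2b9, against 17 and 8 in the other WT livers, although its Y-linked genes were counted as in the other WT livers. With both of these livers left out, a choice made after seeing the data, 6 of the 10 transporter genes were lower and 2 higher, against 20.5% and 23.9% of the 13989 genes then tested.

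The promoters of 3 members are shown because they bear on the extremes of the set and on the canalicular pump that is the textbook FXR target. They are the 250 bases before the annotated start of Slco1a1 (chr6:141946963-141947212, minus strand), Slc51b (chr9:65422774-65423023, minus strand) and Abcb11 (chr2:69342617-69342866, minus strand), from RefSeq on GRCm38.p6, printed 5′ to 3′. The table held promoters for 9 of the 10 genes, 11 promoters in all. Capitals mark matches to any of the motifs described after the sequences.
Slco1a1: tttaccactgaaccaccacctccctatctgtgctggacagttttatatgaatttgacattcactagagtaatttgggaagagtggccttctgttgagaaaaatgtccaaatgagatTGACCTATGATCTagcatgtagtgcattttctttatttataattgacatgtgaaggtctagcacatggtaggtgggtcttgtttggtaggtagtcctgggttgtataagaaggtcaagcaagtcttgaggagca
Slc51b: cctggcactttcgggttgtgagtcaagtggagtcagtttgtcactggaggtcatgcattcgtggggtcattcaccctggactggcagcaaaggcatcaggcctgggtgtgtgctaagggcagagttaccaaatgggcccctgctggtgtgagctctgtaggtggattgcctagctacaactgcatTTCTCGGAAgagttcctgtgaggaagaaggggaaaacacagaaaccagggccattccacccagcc
Abcb11: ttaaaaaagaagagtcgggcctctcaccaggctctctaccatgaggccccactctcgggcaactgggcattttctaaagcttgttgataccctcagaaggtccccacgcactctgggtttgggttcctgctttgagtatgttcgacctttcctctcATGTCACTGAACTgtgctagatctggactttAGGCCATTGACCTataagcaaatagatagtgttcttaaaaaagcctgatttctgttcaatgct

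Both strands of each 250-base window were searched for 5 motifs. Of the motifs, 3 were sought with up to 2 mismatches: the FXR inverted repeat, which is the half-site AGGTCA followed after a single base by its own reverse complement, the direct repeat, in which the half-site is repeated in the same direction after a single base, and the HNF1 palindrome, which is the half-site GTTAAT followed in the same way by its reverse complement. The STAT palindrome TTCNNNGAA and the antioxidant response core TGACNNNGC were sought as exact matches. The inverted repeat and the direct repeat share a half-site. The Abcb11 window held a pair of inverted repeat matches, at −94 to −82 and −63 to −51 from the start, where 0.959% of the 32851 windows in the table held any. A match to the same motif lay in the window of Slco1b2, at −88 to −76. The capitals for Slco1a1 mark a direct repeat match at −134 to −122 (3.24% of all windows), and those for Slc51b mark a STAT palindrome at −65 to −57 (7.02% of all windows). STAT palindromes also lay in the windows of Slc10a1, at −53 to −45, and Slco1b2, at −206 to −198. Abcc2 held an antioxidant response core at −98 to −90 (10.2% of all windows) and an HNF1 match at −75 to −63 (1.24%), and both Abcc4 windows held an antioxidant response core. The windows of Slco1a4 and Abcb4 held no match to any of the 5 motifs. Genes that fell and genes that rose both carried matches.

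Among the uptake carriers, Slco1a1 changed the most of all 10 genes. It encodes OATP1A1, a sodium-independent organic anion transporter of the sinusoidal membrane that is known to be expressed mainly in male mouse liver. The WT livers (replicates 1 to 3, here and in later lists) had 3281, 6289 and 6081 rounded counts of it, and the Hom livers had 25, 28 and 57. The groups were far apart, since the highest Hom liver had 57 counts and the lowest WT liver had 3281. After TMM normalization the gene was at 320.1 ± 119.5 CPM (counts brought to a common library total after TMM scaling; SD, n = 3 mice) in WT and at 1.59 ± 0.749 CPM in Hom livers, 0.498% of the WT mean. The log2 fold change was −7.64 (SE 0.474, edgeR adjusted p = 2.21e-04), or 199.9-fold lower, which placed Slco1a1 at 10 of 13805 genes counted from the lowest fold change.

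The decrease of Slco1a1 was read beside genes with a sex bias in mouse liver. Among all tested genes 20.1% were lower and 21.5% higher. Of 9 tested male-biased genes, 8 were lower in Hom livers and 0 higher (median of the log2 fold changes −4.35), among them Elovl3 (−7.45, SE 1.05), Serpina1e (−5.54, SE 0.796) and Nudt7 (−2.44, SE 0.277), with adjusted p of 0.00229, 0.00244 and 0.00114 in edgeR. The summed level of the male-biased genes overlapped between groups: it was 4880.3 CPM in WT replicate 1, against 28810.6 and 25594.4 CPM in the other WT livers and 804 to 8304.8 CPM in Hom livers. Without WT replicate 1, 8 of the 9 were again lower. Of 5 tested female-biased genes, 3 were higher (1 without WT replicate 2), among them Prom1 and Cux2, with log2 fold changes of 4.78 and 2.75. Prom1 is also known as a gene of biliary and progenitor cells. Hom replicates 2 and 3, which carried the Y-linked genes at WT levels, had 28 and 57 counts of Slco1a1. Without Hom replicate 1 the log2 fold change of Slco1a1 was −7.47 (edgeR adjusted p = 0.00113), and with both livers numbered 1 left out it was −7.74 (adjusted p = 3.48e-04).

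Slc10a1 encodes NTCP, the sodium-dependent carrier that takes conjugated bile acids out of portal blood. Counts were 11168, 11330 and 10457 in the WT livers and 5531, 5414 and 4735 in the Hom livers, without overlap. Relative to a WT level of 664.3 ± 54.8 CPM (SD, n = 3 mice), Hom livers were at 228.5 ± 27.4 CPM, or 34.4%. This was a log2 fold change of −1.54 (SE 0.133, edgeR adjusted p = 4.98e-04). Both the raw counts and the normalized values separated the groups, the latter as for 27% of all tested genes.

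Slco1b2 encodes OATP1B2, the rodent counterpart of the human OATP1B carriers for bilirubin, bile acids and drugs. Its counts were 10568, 12249 and 11323 in WT livers and 5341, 9289 and 8905 in Hom livers, the lowest being in Hom replicate 1. Mean levels were 690.5 ± 97.8 CPM in WT and 338.7 ± 77.4 CPM in Hom livers (SD, n = 3 mice each). In log2 terms the change was −1.03 (SE 0.204, edgeR adjusted p = 0.00798) and −0.85 without Hom replicate 1 (adjusted p = 0.00908). It missed the threshold with library size alone (−0.55, edgeR adjusted p = 0.0688).

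Slco1a4 encodes OATP1A4, a close relative of OATP1A1 that also carries organic anions and cardiac glycosides. It had 1530, 822 and 644 counts in WT and 1897, 1480 and 1167 counts in Hom livers, and the groups overlapped. In each group replicate 1 was the highest liver. The difference between groups was 0.17 on the log2 scale (SE 0.313, edgeR adjusted p = 0.692). It was 0.52 without WT replicate 1 (edgeR adjusted p = 0.156) and −0.091 without Hom replicate 1 (0.837). Its promoter lies at chr6:141856221-141856470 in GRCm38.p6, close to those of Slco1a1 and, at chr6:141629268-141629517, Slco1b2. The 3 Slco genes of this stretch of chromosome 6 thus gave log2 fold changes of −7.64, −1.03 and 0.17.

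Reads from near-identical copies can be split between genes by the counting. Of all stretches of 50 bases in the longest GENCODE M21 transcript of Slco1a1, 2.26% also occurred in a transcript of another gene, most often Slco1a4. The share was 2.73% for Slco1a4, most often with Slco1a5, and 3.42% for Abcb4, most often with Abcb1a. It was 0.313% for Abcc2 and 0 for the remaining 6 members. The estimated counts of Slc10a1, Slco1a1, Slco1a4 and Abcc4 were not whole in any liver, while those of Slco1b2, Abcb11, Abcc2 and Abcc3 were whole in all 6, with a tolerance of 1e-08. The part of the shared reads in the Slco1a4 value was not tested.

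**Figure D1:**
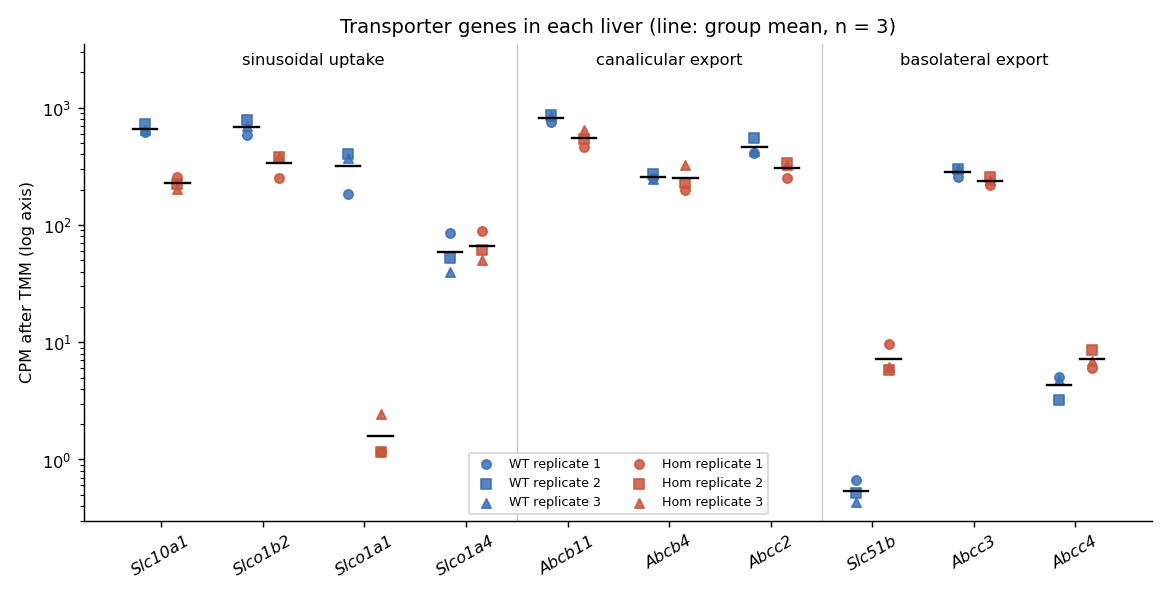
Level of each of the 10 transporter genes in each liver, as CPM after TMM normalization on a log axis, with 1 point per liver and a line at the mean of 3. Slco1a1 lies near 1 to 2 CPM in Hom livers against 183.2 to 403.4 CPM in WT livers, and Slc51b lies under 1 CPM in WT livers and above 5 CPM in Hom livers, while Slco1a4 and Abcb4 overlap between groups.

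At the canalicular membrane the changes were smaller and depended on the scaling. Abcb11 encodes BSEP, the ATP-driven pump that exports bile salts into bile. It had 13593, 13514 and 13720 counts in WT livers and 10002, 13139 and 15020 counts in Hom livers, so that the counts themselves overlapped and Hom replicate 3 was the highest of all 6. After TMM normalization the groups separated, with every Hom value below the WT values, at 552 ± 90.8 against 823 ± 56.6 CPM (SD, n = 3 mice each), as was the case for 27% of all tested genes. Its log2 fold change was −0.58 (SE 0.154, edgeR adjusted p = 0.0231). It was −0.54 without WT replicate 2 (adjusted p = 0.0729), −0.56 without WT replicate 3 (adjusted p = 0.0643) and −0.56 without Hom replicate 2 (adjusted p = 0.0769), all with edgeR and no longer past the threshold.

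Abcc2 encodes MRP2, which exports bilirubin glucuronides and other conjugates into bile. It had 7319, 8544 and 7013 counts in WT and 5424, 8264 and 7569 counts in Hom livers, again with overlap. Normalized levels were 462.6 ± 74.8 CPM in WT and 306.7 ± 46.9 CPM in Hom livers (SD, n = 3 mice each). They did not overlap, as for 27% of all tested genes with Hom below WT. Its log2 fold change was −0.59 (SE 0.168, edgeR adjusted p = 0.0283). This call was lost when 1 liver was left out in 4 of 6 cases: WT replicate 2 (−0.46, adjusted p = 0.0845), WT replicate 3 (−0.65, 0.0511), Hom replicate 1 (−0.47, 0.0569) and Hom replicate 3 (−0.64, 0.0693), with edgeR in each.

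Abcb4 encodes MDR2, the floppase that moves phosphatidylcholine into bile, where it protects the ducts from bile salts. Its counts were 4467, 4251 and 4036 in WT and 4279, 5503 and 7604 in Hom livers. Normalized levels were 256.7 ± 13.8 and 251.4 ± 67.5 CPM (SD, n = 3 mice each), with the spread in the Hom group set by replicate 3. Abcb4 had a log2 fold change of −0.030 (SE 0.187, edgeR adjusted p = 0.91).

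On the basolateral side, Slc51b rose the most of the 10 genes. It encodes OSTβ, one subunit of the organic solute transporter that lets bile acids leave the cell, known from ileum and cholangiocytes and low in normal mouse hepatocytes. The partner subunit Slc51a was not analysed here. Slc51b had 12, 8 and 7 counts in WT livers and 208, 141 and 144 counts in Hom livers. The Hom values were all above the WT values, as for 28.7% of tested genes, with levels of 0.538 ± 0.122 CPM in WT and 7.24 ± 2.14 CPM in Hom livers (SD, n = 3 mice each). The log2 fold change was 3.73 (SE 0.313, edgeR adjusted p = 4.81e-04), or 13.2-fold higher, at 146 of 13805 genes counted from the highest. Few counts in WT livers limit the precision of the fold.

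Abcc4 encodes MRP4, an exporter of bile acids, conjugates and cyclic nucleotides. It was a low gene in both groups, with 91, 50 and 77 counts in WT and 129, 207 and 160 counts in Hom livers, and the groups did not overlap. Levels were 4.34 ± 0.997 CPM in WT and 7.15 ± 1.28 CPM in Hom livers (SD, n = 3 mice each). In CPM too the Hom values were all above the WT values, as for 28.7% of tested genes. The log2 fold change was 0.72 (SE 0.228, edgeR adjusted p = 0.0412). It stayed positive but missed the threshold without WT replicate 2 (0.54, adjusted p = 0.102), WT replicate 3 (0.78, 0.0707), Hom replicate 2 (0.57, 0.139) or Hom replicate 3 (0.75, 0.0962), and after a correction for gene length (0.53, 0.0956), all with edgeR.

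Abcc3 encodes MRP3, the main basolateral exporter of glucuronides such as conjugated bilirubin. It had 4581, 4709 and 4884 counts in WT and 4732, 6186 and 5587 counts in Hom livers. Normalized levels were 286 ± 26.1 CPM in WT and 238.9 ± 17.2 CPM in Hom livers (SD, n = 3 mice each), with a log2 fold change of −0.26 (SE 0.111, edgeR adjusted p = 0.101). The raw counts overlapped between groups, while the normalized values of the Hom livers (220.8 to 255 CPM) were just below those of the WT livers (255.8 to 302 CPM). Such a separation, with Hom below WT, was seen in 27% of all tested genes. It passed the threshold without WT replicate 1 (−0.34, edgeR adjusted p = 0.0464), with both livers numbered 1 left out (−0.27, 0.0445) and with the length correction (−0.45, 0.0165).

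How far each value rested on the scaling was examined with 3 other ways to scale the libraries. One of them set the mean log2 level of 27 hepatocyte marker genes, such as Alb and Ttr, equal in every liver, and it moved the median of all genes to 0.77. Slco1a1 (−6.87, adjusted p = 5.26e-06) and Slc10a1 (−0.77, adjusted p = 0.00318) stayed lower and Slc51b (4.46, adjusted p = 8.23e-06) and Abcc4 (1.51, adjusted p = 0.00249) stayed higher under it in edgeR. Slco1b2 was at −0.22 (adjusted p = 0.466), and Abcb11 and Abcc2 were at 0.21 each and not past the threshold (adjusted p = 0.402 and 0.423). Slco1a4, Abcb4 and Abcc3, at 0.91, 0.76 and 0.53, were past the threshold and higher (adjusted p = 0.0119, 0.0162 and 0.0373). Relative to the median of all genes the positions hardly moved: Abcb11 was at −0.57 to −0.56 and Slc10a1 at −1.54 under TMM factors and all 3 others.

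**Figure D2:**
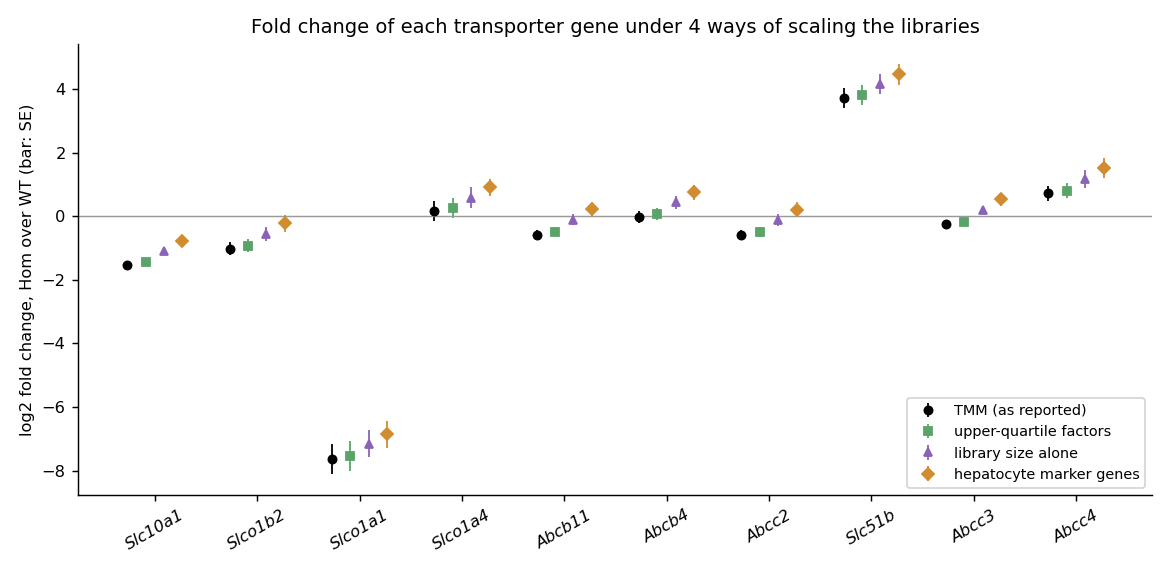
Log2 fold change of each transporter gene, Hom over WT, with its SE, under TMM factors, upper-quartile factors, library size alone and scaling to hepatocyte marker genes. Slco1a1, Slc10a1 and Slco1b2 stay below 0 and Slc51b, Abcc4 and Slco1a4 above 0 under all 4, while Abcb11, Abcb4, Abcc2 and Abcc3 cross it.

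The ratio of a pair of transporters within the same liver does not depend on the scaling, and 6 such pairs were compared. The log2 count ratio of Slco1a4 to Slco1a1 was −1.10, −2.94 and −3.24 in WT replicates 1 to 3 and 6.22, 5.70 and 4.34 in Hom replicates 1 to 3, so Slco1a1 had the more counts of the pair in each WT liver and Slco1a4 in each Hom liver. The ratio of Slco1a1 to Slco1b2 was −1.18 ± 0.439 in WT and −7.78 ± 0.540 in Hom livers (SD, n = 3 mice each). That of Abcb11 to Slc10a1, the main bile salt exporter against the main bile salt importer, was 0.31 ± 0.072 in WT and 1.27 ± 0.406 in Hom livers, a difference of 0.96, or 1.94-fold. Within the canalicular set, Abcb4 to Abcb11 was at −1.68 ± 0.080 in WT and −1.15 ± 0.15 in Hom livers. The ratio of Abcc4 to Abcb11 was −7.58 ± 0.436 in WT and −6.27 ± 0.282 in Hom livers, and that of Abcc3 to Abcc2 was −0.69 ± 0.169 and −0.35 ± 0.134. In all 6 pairs the groups did not overlap, with p = 0.1 in an exact two-sided permutation test (0.1 after Benjamini-Hochberg adjustment over the 6), the smallest that 3 mice against 3 allow, so none can pass 0.05.

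**Figure D3:**
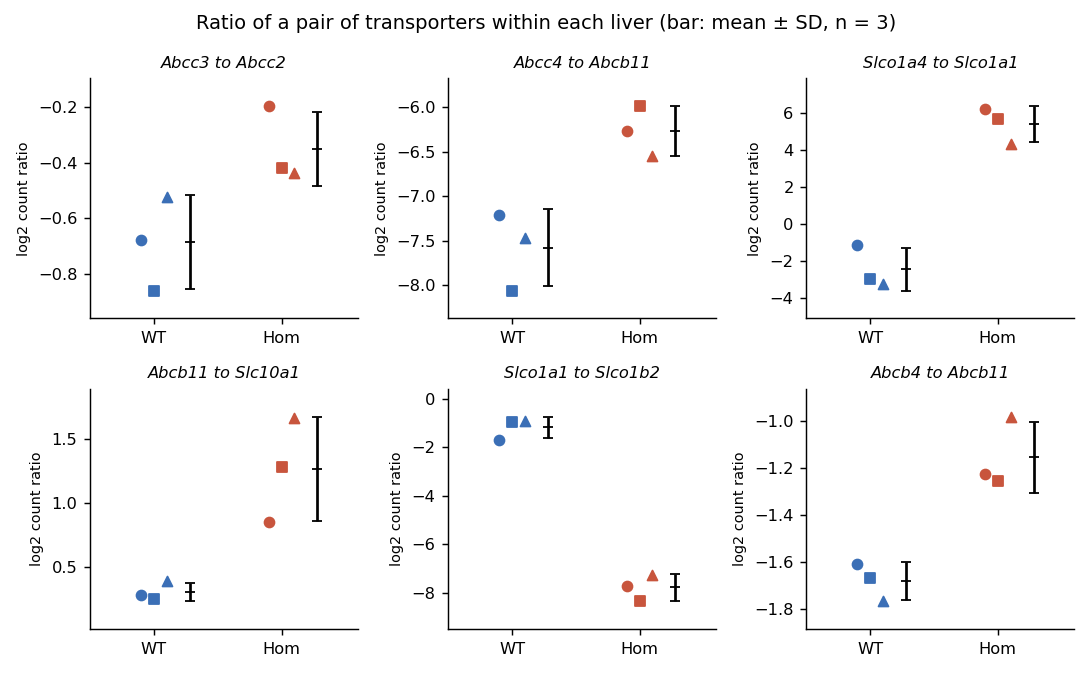
Log2 ratio of the rounded counts of a pair of transporters within each liver, in WT and Hom livers, with the mean and SD of 3 mice beside the points. No pair overlaps between groups, and the largest shift is that of Slco1a4 to Slco1a1, 7.84 on the log2 scale.

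Levels were compared between genes with the authors' TPM values, which divide by gene length and sum to the same total in every liver, and which carry no TMM correction. In WT livers Slc10a1 was highest at 584.4 ± 46.2 TPM (SD, n = 3 mice), followed by Slco1b2 at 305.1 ± 18.3 TPM and Abcb11 at 246 ± 11.6 TPM. Abcc2, Slco1a1 and Abcb4 came next, at 123.5 ± 14.2, 114.5 ± 33.4 and 100.6 ± 11.3 TPM, and did not differ beyond their spread, and the lowest WT value of Slco1a1 (76.3 TPM) lay under that of Abcc3. Abcc3 stood at 82.5 ± 1.37 TPM and Slco1a4 at 23.9 ± 12.2 TPM, while Slc51b (1.75 ± 0.589 TPM) and Abcc4 (1.15 ± 0.356 TPM) were lowest and overlapped.

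In Hom livers the order differed at the low end. Slc10a1 was still highest at 310.2 ± 22.3 TPM, but its lowest liver was within the range of Abcb11 (255.6 ± 53.8 TPM), which in turn overlapped with Slco1b2 (234.6 ± 67.2 TPM). Slco1b2, Abcb4 (152.8 ± 46.4 TPM), Abcc2 (127.8 ± 27.8 TPM) and Abcc3 (106.9 ± 15.1 TPM) followed, each overlapping with the next. Slc51b reached 36.1 ± 7.87 TPM, a level that overlapped with that of Slco1a4 (39.9 ± 9.35 TPM). Slco1a1 became the lowest of the 10 at 0.9 ± 0.452 TPM, under Abcc4 at 2.88 ± 0.702 TPM (SD, n = 3 mice each). By mean TPM over the whole table, Slco1a1 went from rank 966 to rank 12856 of 17975 genes, and Slc51b from rank 10339 to rank 3115.

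Summed by class, the 4 uptake carriers came to 1035.1, 1080.1 and 968.5 TPM in WT and to 531.4, 639.6 and 585.6 TPM in Hom livers. Slco1a1 made up 11.2 ± 3.30% of that sum in WT and 0.154 ± 0.0768% in Hom livers (SD, n = 3 mice each). The 3 canalicular transporters summed to 470 ± 30.7 TPM in WT and 536.1 ± 121.5 TPM in Hom livers, with overlap. In TMM-normalized CPM, which does not divide by length, the same sum was 1417.3 to 1687.4 in WT and 919.6 to 1301.5 in Hom livers, without overlap. The 3 basolateral exporters summed to 87.9, 83.8 and 84.3 TPM in WT and 138.1, 155.2 and 144.4 TPM in Hom livers. The share of Slc51b in the basolateral sum was 2.04 ± 0.628% in WT and 25.0 ± 6.78% in Hom livers. Abcc3, which made up most of this class in both groups, was higher in Hom livers in TPM and lower in TMM-normalized CPM. The differences between the canalicular and between the basolateral sums depended on which of these measures was used. The measures differ in the division by length and in the scaling, and the part of each was not tested. In CPM the basolateral sums overlapped, at 261.6 to 305.7 in WT and 236.6 to 269.4 in Hom livers.

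**Figure D4:**
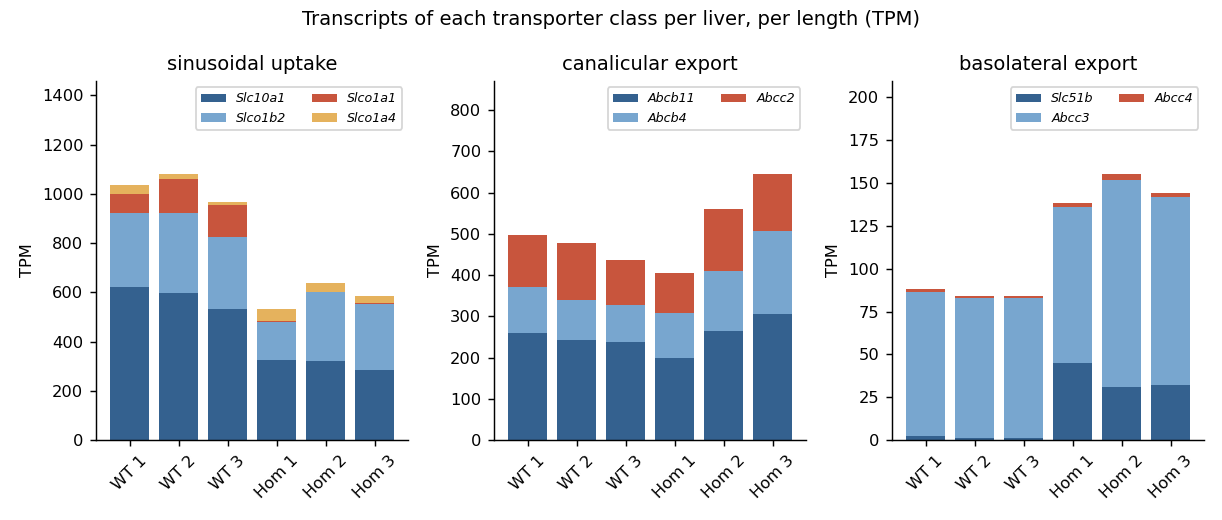
Authors' TPM of the transporter genes in each liver, stacked by class, with axes from 0 that differ between panels. The uptake sum is lower in each Hom liver than in any WT liver, the basolateral sum is higher, and the canalicular sums overlap; TPM carries no correction for library composition.

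Markers of the cell types of the liver were read beside the transporters. Their counts stand against 20.1% lower and 21.5% higher among all tested genes. Of the 27 tested hepatocyte markers, 15 were lower and 0 higher in Hom livers (12 did not pass the test; 7 were lower without Hom replicate 3 and 20 without Hom replicate 1), and their median was −0.67 on the log2 scale, as in Ttr (−1.85), Apoa2 (−1.56) and Rbp4 (−1.04). Their summed level was 196219.5 to 231905.8 CPM in WT and 98387.5 to 139661.8 CPM in Hom livers, and none of the 27 was at 0 in any liver. Abcb11 and Abcc2, at −0.58 and −0.59, lay near that median. Slco1b2 and Slc10a1, at −1.03 and −1.54, lay below it but within the range of the markers, −2.94 to 0.20, and Slco1a1 lay below that range. All 12 cholangiocyte markers, the markers of bile duct cells, were higher (median 3.13), as in Tspan8 (4.54), Spp1 (3.78) and Krt7 (2.63). Their sum was 81.4 to 115.7 CPM in WT and 705.8 to 1005.1 CPM in Hom livers, and the only one at 0 in any liver was Sctr, in WT replicate 3. Slc51b and Abcc4 moved in the same direction as these markers, and the part of bile duct cells in their increase was not tested.

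Markers of other cells moved unevenly. Of 12 stellate cell markers, 7 were higher and 1 was lower (Reln, −1.55), with Col1a1 at 3.32, Lum at 2.48 and Pdgfrb at 1.72. Their sum was 349.9 to 410.1 CPM in WT and 742.8 to 816.7 CPM in Hom livers. Of 12 macrophage markers, 2 were higher (Lyz2 and Cd68) and 2 were lower (Clec4f and Timd4), and their sums overlapped, at 364.2 to 878.7 and 595.4 to 828.1 CPM. WT replicate 1 gave the 878.7, and without it 7 macrophage markers were higher and 1 lower, while 0 were higher without WT replicate 2, WT replicate 3, Hom replicate 2 or Hom replicate 3. Of 12 endothelial markers, 6 were lower and 0 higher, among them Clec4g, Oit3 and Kdr, and their sum was 334.5 to 447.9 CPM in WT and 259 to 267 CPM in Hom livers. With scaling to hepatocyte markers, 4 endothelial markers were lower and 5 higher, and 5 hepatocyte markers were lower and 7 higher. Of all 13805 tested genes, 294 were then lower and 9474 higher.

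Further transporters of bile and organic ions were taken from a list of 25 genes, of which 22 could be tested. Of these, 9 fell and 4 rose, against 20.1% and 21.5% of all tested genes. The median of the 22 log2 fold changes was −0.39. Among the lower genes were Slc29a1, an equilibrative nucleoside transporter (−1.13, SE 0.095), and Slc22a7, the organic anion transporter OAT2 (−3.31, SE 0.287). Slc22a7 was at 65.5 ± 24.2 CPM in WT and 6.58 ± 0.353 CPM in Hom livers (SD, n = 3 mice each; edgeR adjusted p = 4.98e-04). The 3 higher genes with the smallest adjusted p were Abcc5, an exporter of cyclic nucleotides (1.37, SE 0.143), Abcb1a, a P-glycoprotein (2.23, SE 0.367), and Slco3a1, an organic anion transporter (1.48, SE 0.289). Uptake carriers and exporters were found among the lower and among the higher genes of this list. Slc29a1, Slc22a7, Abcc5, Abcb1a and Slco3a1 kept their direction under each of the other scalings. With library size alone 4 of the 22 were lower and 8 higher, against 642 and 6574 of all 13805 tested genes. Their median was then 0.077.

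The canalicular flippases and the scaffolds that hold the pumps in the membrane included lower and higher genes. Of 17 tested genes, 5 were lower and 4 higher (median −0.014, and 2 higher without WT replicate 2). Over all tested genes the shares were 20.1% lower and 21.5% higher. Pdzk1, a PDZ scaffold (−0.81), and Ceacam1, a canalicular adhesion molecule (−0.91), fell, and Ezr and Msn, linkers of membrane to actin (1.505 and 0.78), rose. Rdx, another such linker, fell from 189.5 ± 3.30 to 147.2 ± 9.85 CPM (−0.36, SE 0.087, edgeR adjusted p = 0.0154). With scaling to hepatocyte markers 0 of the 17 were lower and 13 higher, against 294 and 9474 of all 13805 tested genes. Pdzk1, Ceacam1, Ezr and Msn kept their sign under each scaling. Rdx did not, at 0.095 with library size alone and 0.42 with hepatocyte markers.

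Among 16 tested genes that sense bile acids or control transporter transcription, 6 were lower and 2 higher (median −0.39). The shares over all tested genes were 20.1% lower and 21.5% higher. Nr0b2, which encodes the repressor SHP and is itself a target of FXR, fell from 63.05 ± 7.55 to 24.8 ± 4.29 CPM (log2 fold change −1.35, SE 0.148, edgeR adjusted p = 0.00101). The receptors Nr1i3 (CAR, −1.02, SE 0.078) and Ppara (−1.30, SE 0.164) also fell. S1pr2, a receptor for conjugated bile acids and sphingosine phosphate, rose from 4.30 ± 0.335 to 17.0 ± 1.93 CPM (1.98, SE 0.138), and Nfe2l2, which encodes NRF2, rose by 0.76 (SE 0.140). Nr1h4, which encodes FXR and was named after its value was seen, was at 93.5 ± 1.93 CPM in WT and 81.2 ± 4.32 CPM in Hom livers (−0.20, edgeR adjusted p = 0.063). With scaling to hepatocyte markers 1 of these 16 was lower and 6 were higher, against 294 and 9474 of all 13805 tested genes. The 5 genes named above as past the threshold kept their sign under each scaling.

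Of 8 genes that bind, conjugate or make bilirubin, 2 were lower and 1 was higher (median −0.034, and 2 higher without Hom replicate 1). Over all tested genes 20.1% were lower and 21.5% higher. Ugt1a1, the enzyme that conjugates bilirubin before Abcc2 exports it, was at 668.2 ± 53.6 CPM in WT and 340.5 ± 70.2 CPM in Hom livers (SD, n = 3 mice each; log2 fold change −0.97, edgeR adjusted p = 0.00499). Gsta3 fell by 1.48 on the log2 scale and Gsta1 rose by 3.00, and both are glutathione transferases, a family of cytosolic binders of organic anions. All 3 kept their direction under each scaling.

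**Figure D5:**
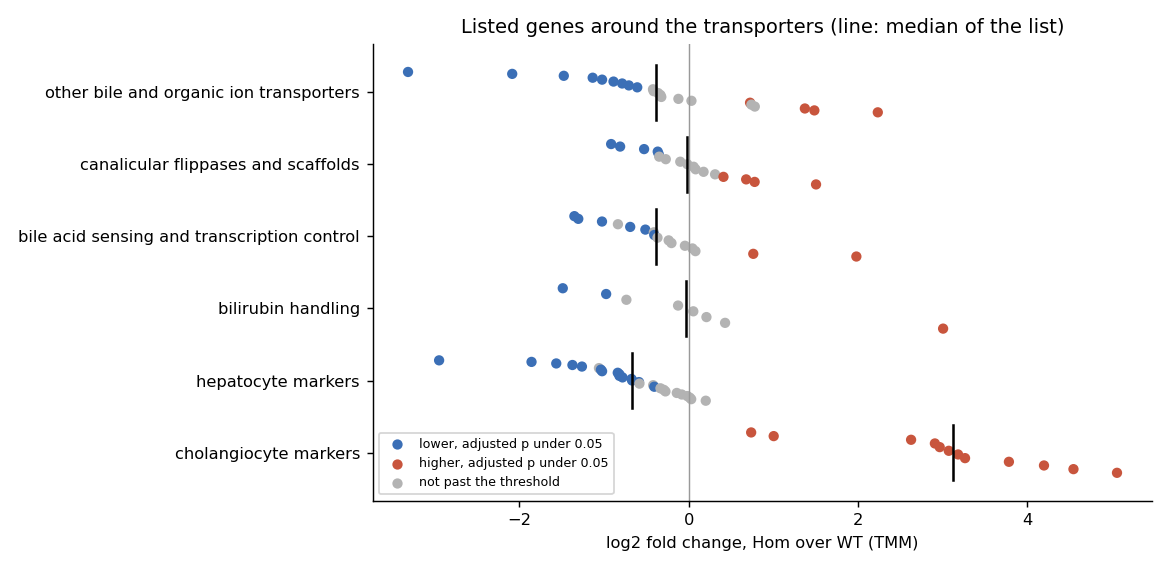
Log2 fold change, Hom over WT with TMM factors, of each tested gene in 6 lists, coloured by whether it passed an adjusted p under 0.05, with a line at the median of each list. Cholangiocyte markers lie to the right (median 3.13) and hepatocyte markers to the left (median −0.67), and the lists of other transporters and of bile acid sensing have medians of −0.39.

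The genes whose pattern over the 6 livers was most like that of the extreme members were found by Pearson's correlation of log2 CPM among 12468 genes. The 6 livers share the contrast between groups, so high values are common and are given as a description. For Slco1a1 they were Cyp2d10 (r = 0.9989), Cyp2d40 (0.9982) and Mrpl39 (0.9980), with log2 fold changes of −1.16, −2.20 and −0.53. For Slc51b they were Npdc1 (r = 0.9989), Myo1c (0.9980) and Tmem119 (0.9979), with log2 fold changes of 3.16, 0.91 and 3.40.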

How the data were processed

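RNA was extracted with Trizol from 3 WT and 3 Hom livers, each a separate mouse, and sequenced on the DNBSEQ platform. The submitters' processing notes name HISAT2 2.0.4, Bowtie2 2.2.5, RSEM 1.2.12 and the build mm9, and the annotation and strandedness are not given in the sources used here. The authors deposited each liver's estimated counts per gene, made from aligned reads and not scaled between livers. The authors also deposited FPKM and TPM values per liver. Their 6 columns of group means were not used, since the WT and Hom names of the count means are exchanged for all 17975 genes.

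Estimated counts were rounded and tested with edgeR 4.0.16 (R 4.3.3; quasi-likelihood, TMM factors), on the 13805 genes that passed filterByExpr. The SE is the size of the log2 fold change divided by the square root of F. TPM served for levels between genes, and FPKM for the gene length. At 7 to 12 counts per WT liver, counting error limits the value of Slc51b. The edgeR fit, its forms with a replicate block or a gene length correction, and DESeq2 were tried on simulated data. The permutation test and the other scalings were not. Members and lists were chosen with earlier results of these data known. The genes named were the 10 members, Nek7, up to 3 lower and 3 higher genes per list by adjusted p, and the 3 genes most like the highest and the lowest member (mean CPM of at least 1). Some genes that this rule names are not reported here. Cyp2b9, Ddx3y, Kdm5d, Sctr, Rdx and Nr1h4 were named after their values were seen. Within-liver ratios had a pseudocount of 0.5 counts.

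Alternatives were DESeq2 1.42.0, library size alone, upper-quartile factors, scaling to 27 hepatocyte markers, a minimum of 10 counts in each liver, no filter on counts, a replicate block, a loess correction for gene length with and without the block, each liver left out, a minimum log2 fold change of 1 in size, and for ratios a pseudocount of 5 or TPM.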

Additional observations from a re-analysis of the deposited data

How the results depend on the processing

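Slco1a1, Slc10a1 and Slc51b kept their direction and stayed past the threshold under every alternative run for them, Slc51b not being tested where at least 10 counts in every liver were required. Library size alone gave 2 lower transporter genes, and scaling to hepatocyte markers gave 2 lower and 5 higher. With a log2 fold change of 1 or more in size, 3 were lower and 1 was higher. The number higher was 1 with at least 10 counts in every liver and with the gene length correction. With 1 liver left out, 3 to 6 were lower and 1 to 2 higher. Over all genes, 642 were lower and 6574 higher with library size alone, 294 and 9474 with hepatocyte marker scaling, and 575 and 1825 with a change of 1 or more in size, and 1767 to 2750 were lower with 1 liver left out. The 6 within-liver ratios kept their direction under every alternative run for them.

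Signs changed for Slco1a4 with the length correction (−0.012) and on leaving out 1 liver (−0.091 to 0.52), for Abcb4 with library size alone (0.44), upper-quartile factors (0.062), hepatocyte markers (0.76), at least 10 counts in every liver (0.018), both livers numbered 1 left out (0.10) and 1 liver left out (−0.27 to 0.11), for Abcc3 with library size alone (0.21) and hepatocyte markers (0.53), and for Abcb11 (0.21) and Abcc2 (0.21) with hepatocyte markers. Depth limits Slc51b, at 7 to 12 counts in each WT liver.

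With the replicate number as a block, 1 transporter gene was higher instead of 2, Abcc4 being lost (0.72, adjusted p = 0.0984 from edgeR's test), and 5 were lower; with the block and the length correction together 1 was higher, and 1680 of all genes were higher. Same-numbered livers did not deviate together (correlations of −0.095, −0.052 and −0.062) and are different mice. Among 159 comparisons of single transporter genes with an alternative, 121 kept direction and side of the threshold, 18 lost the threshold, 5 gained it and 15 changed sign. Of these 15, 7 arose under another scaling, which moved the median of all genes by up to 0.77, and Abcb11, Abcb4, Abcc2 and Abcc3 stayed below that median under each scaling. The cause of the other changes was not tested.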
